A study of Mus musculus with 20 samples.

Results

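Interferon-stimulated genes are the genes that a cell turns on when an interferon binds its receptor, and 37 of them, listed by name, were followed in alveolar macrophages of the mouse. The deposited table held 36 of the 37 among its 13225 genes. Ifi44 was not analysed here. Alveolar macrophages are the resident phagocytes of the air spaces, sorted here by flow cytometry with CD45, Siglec-F and CD11c all positive. Poly-A RNA was sequenced from 20 mice, 5 in each of 4 groups. The WT groups were wild-type C57BL/6 mice after 4 weeks of air (WT air) or of cigarette smoke (WT smoke). The KO groups were miR-155 knockout mice of the strain B6.Cg-Mir155tm1.1Rsky/J after 4 weeks of air (KO air) or of cigarette smoke (KO smoke). Per the labels each library was 1 mouse, the knockout was 1 strain, and no Cre or transgene was named. The sources used here give neither age nor sex. Mice keep their codes from the labels: Ia3, Ia4, Ib1, Ib2 and Ib4 in WT air, IIa1, IIa5, IIb1, IIb2 and IIb3 in WT smoke, IIIa5, IIIb1, IIIb2, IIIb3 and IIIb4 in KO air, and IVa2, IVa4, IVa5, IVb2 and IVb4 in KO smoke. Values per mouse are given in that order throughout.

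Type I interferons bind IFNAR1 and IFNAR2, whose kinases JAK1 and TYK2 activate the complex ISGF3, of which STAT2 and IRF9 are parts. ISGF3 binds the interferon-stimulated response element, a DNA element upstream of many antiviral genes. Interferon gamma acts on a different element, GAS, and IRF7 and the RNA sensors feed back on interferon production. In the lung, alveolar macrophages are known as a major producer of type I interferon during infection with RNA viruses. The microRNA miR-155 is known as a regulator of macrophage activation.

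To look for this element in the listed genes, promoter windows of 300 bases were read from RefSeq (GRCm38.p6). They ran from 250 before to 50 after the annotated start. A window was found for 28 of the 36 genes. With Ifi44 counted in, the bases after the start were found in a GENCODE transcript of the gene for 24 of 29. The core of the element was searched as GAAANNGAAA on both strands, where overlapping matches were allowed. It was present for 14 of the 28 genes (50%) and for 368 of the 9379 genes of the table with a window (3.92%). The GAS motif, TTCNNNGAA, was present for 9 of the 28 (32.1%) and for 8.20% of the genes of the table. A match describes the letters only. The lines below show 6 windows around these matches, for genes with a match that passed the test in at least 1 comparison described further on. Each runs 5′ to 3′ on the gene's own strand, and capitals mark the bases in a match to the core or to its reverse complement. Ifitm3 also passed a test and had a match, which lay within the first bases after its start and is not printed.
Isg15: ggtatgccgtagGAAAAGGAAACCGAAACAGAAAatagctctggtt
Ifit3: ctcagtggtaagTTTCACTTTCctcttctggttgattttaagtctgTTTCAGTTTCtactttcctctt
Oas1a: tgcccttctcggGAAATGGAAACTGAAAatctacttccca
Bst2: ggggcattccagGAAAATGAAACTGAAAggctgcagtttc
Slfn5: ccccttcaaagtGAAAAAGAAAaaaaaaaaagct
Stat2: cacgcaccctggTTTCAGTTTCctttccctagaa
The Isg15 stretch is chr4:156200863-156200908 on the minus strand, with 3 overlapping matches, the nearest 66 bases before the start. That of Ifit3 is chr19:34583361-34583428 on the plus strand, with 2 matches, the nearest 122 bases before the start. Oas1a (chr5:120907518-120907557, minus) has 2 matches, the nearest 14 bases before the start. Bst2 (chr8:71537575-71537614, minus) has 2 matches, the nearest 124 bases before the start. Slfn5 (chr11:82951935-82951968, plus) has 1 match, 155 bases before the RefSeq start. In the GENCODE annotation the gene begins further upstream, at 82951349, so this stretch lies inside it. Stat2 (chr10:128270264-128270297, plus) has 1 match, 222 bases before the start. The remaining genes with a match were Ifih1, Ddx58, Eif2ak2, Oas3, Ifit1, Rsad2 and Slfn8.

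The values are log2 CPM, the log of reads scaled to a common library size, as deposited, from which whole reads were recovered. Libraries held 6885680 to 11952088 reads over the genes of the table, and 3 reads corresponded to 0.251 to 0.436 CPM. The KO air mice IIIb2, IIIb3 and IIIb4 stood apart, with 1645, 1524 and 1451 genes at 0 reads against a median of 702.5 over all libraries, so several results that rest on KO air are also given without them. The gate was visible in the RNA: Siglecf (Siglec-F) lay at 489 to 574 CPM in WT air and 174 to 293 CPM in WT smoke, and Itgax (CD11c) at 1746 to 2166 CPM over all mice. Summed neutrophil markers ran from 90.3 to 129 CPM in WT air and from 159 to 357 CPM in WT smoke, and from 86.1 to 134 CPM in KO air and from 139 to 314 CPM in KO smoke. These were 5 of 7 markers listed. Ly6g and Retnlg were not analysed here, and S100a9 had no read in either air group. By the test described further on, smoke raised 3 of the 5 and lowered 1 in each genotype, against 22.4% of all genes in WT and 15.5% in KO. Without WT smoke mouse IIb1, 2 were raised and 1 lowered in WT, against 18.8%. B cell and eosinophil markers were not analysed here. The part of Siglecf and of cells with these markers in the smoke results was not tested. Poly-A libraries do not measure mature miR-155. Its host transcript Mir155hg had 2, 48, 25 and 8 reads in all in WT air, WT smoke, KO air and KO smoke, with mice at 0 in every group, so it gives no check of the genotype labels. In these bulk samples, fewer cells of a type and less RNA per cell cannot be told apart.

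Per kilobase of exon, Trim25 (52.2 CPM per kb, mean of all libraries), Samhd1 (47.8) and Bst2 (39.4) were the most abundant of the 36 genes. The lowest were Slfn5 at 0.193 and Slfn8 at 0.147 CPM per kb. On the CPM scale the genes fell into 17 with an average of 4 or more in log2 CPM, called abundant here, and 19 below that, called scarce. The abundant genes were the RNA sensors, Stat2, Irf1, Irf9, Eif2ak2, Adar, Oas1a, Trim25, the PARP genes, Bst2, Samhd1, Slfn2 and Ifi35. The scarce genes were Irf7, Zbp1, the other oligoadenylate synthetase genes, the IFIT genes, Isg15, Usp18, Mx1, Rsad2, Cmpk2, Ifitm3, Slfn5, Slfn8, Rtp4 and Xaf1, most of which are known from the acute response to type I interferon.

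The summed level of the abundant genes was 1613 to 1690 CPM in WT air, 1351 to 1686 in WT smoke, 1523 to 1745 in KO air and 1360 to 1448 in KO smoke. The highest WT smoke value came from mouse IIb1. The summed level of the scarce genes was 58.6, 49.1, 39.0, 49.3 and 84.4 CPM in WT air and 68.9, 57.5, 399, 93.4 and 58.5 CPM in WT smoke. It was 73.1, 40.2, 36.8, 32.5 and 43.6 CPM in KO air and 45.6, 35.8, 39.7, 39.0 and 30.7 CPM in KO smoke. Every WT smoke mouse was above every KO smoke mouse in this sum. WT smoke mouse IIb1 was above all 19 other mice. Of 95 values of scarce genes per group, 7 were at 0 reads in WT air, 2 in WT smoke, 30 in KO air and 12 in KO smoke.

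**Figure D1:**
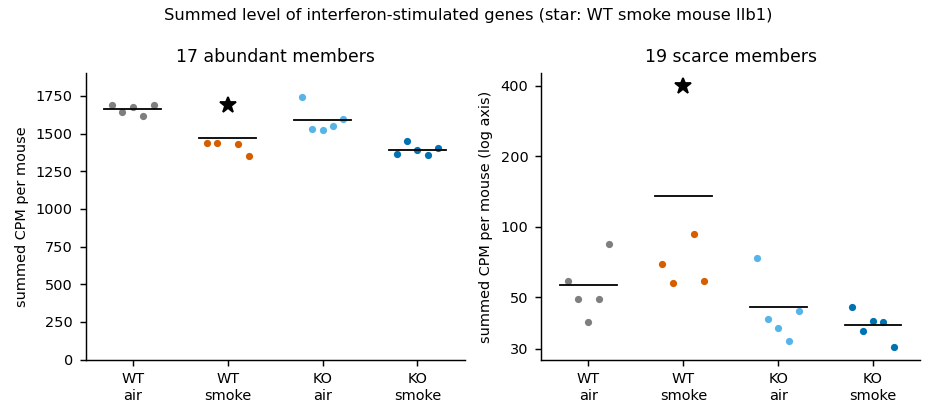
Summed CPM per mouse of the 17 abundant genes (left, linear axis from 0) and the 19 scarce genes (right, log axis) in the 4 groups. Points are mice, bars are the mean of 5, and the star is WT smoke mouse IIb1, at 399 CPM for the scarce genes.

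Mouse IIb1 was the highest WT smoke mouse for 31 of the 36 genes, against 21.9% of all genes in the table. For the scarce genes it was the highest for 18 of 19, at a median of 8.0 times the median of the other 4 WT smoke mice, and 17 of 19 were at least 3-fold above. Of all genes with a mean log2 CPM under 4, 7.11% were at least 3-fold above in this mouse. The steepest were Ifit1 at 18.8 times, Rsad2 at 18.1 times, and Oasl2 and Oas3, each at 10.7 times. The abundant genes had a median ratio of 1.18 and a range of 0.835 to 1.72. Among related genes that were not on the list, IIb1 was the highest of its group for 44 of 67 other interferon-stimulated genes and for 12 of 16 GTPase and chemokine genes inducible by interferon gamma. It was the highest for 2 of 6 interferon receptor chains. In the other groups the mouse most often the highest was Ib4 in WT air (18 of 36 genes), IIIa5 in KO air (16) and IVa5 in KO smoke (13). Over all genes these mice were the highest of their group for 16.4%, 15.3% and 24.3%.

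**Figure D2:**
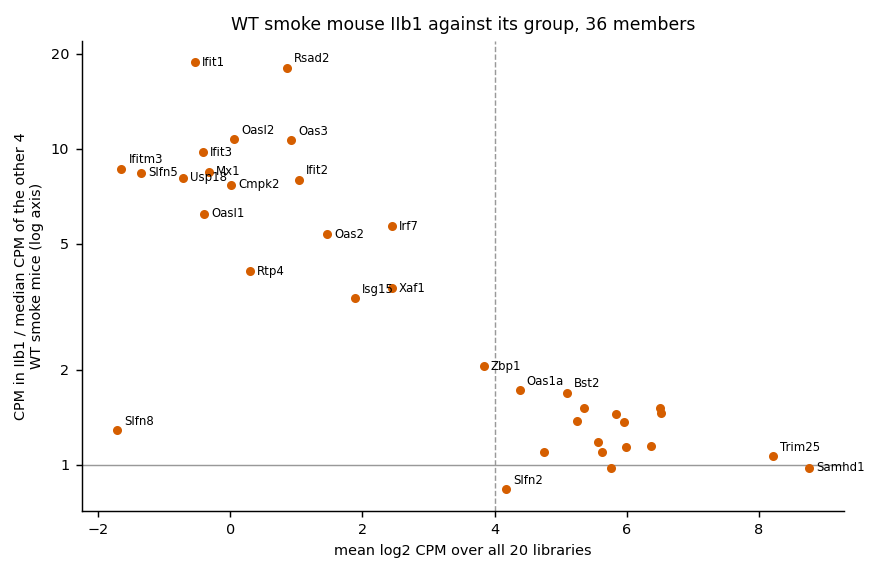
CPM in WT smoke mouse IIb1 divided by the median of the other 4 WT smoke mice (log axis) against the mean log2 CPM over all 20 libraries, 1 point per gene. The dashed line at 4 separates scarce from abundant genes, and the scarce genes other than Slfn8 and Zbp1 are at least 3-fold above the group.

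Markers of other cells also differed in IIb1. It was the highest WT smoke mouse for 8 of 11 monocyte and interstitial macrophage markers (summed 2115 CPM, group range 1279 to 2381), for 3 of 5 neutrophil markers (357 CPM, group range 159 to 357) and for both T and NK cell markers measured of 9 listed, Cd4 and Il7r (41.2 CPM, group range 7.47 to 41.2). It was the highest for 2 of 4 markers of plasmacytoid dendritic cells, the specialised interferon producers, with a summed 70.2 CPM in a group range of 56.9 to 81.6 CPM. It was the highest for none of the 12 alveolar macrophage markers. Their part in the interferon-stimulated level of this mouse was not tested. Tests, folds and counts of calls below that rest on WT smoke are given with all libraries first and then without IIb1.

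In wild-type mice 9 of the 36 genes passed the test between smoke and air, a share close to that of all genes, and 27 did not. Groups were compared by the difference of their mean log2 CPM with limma, a linear model fitted to all genes at once, and a gene was called where its p-value, adjusted over all genes by Benjamini-Hochberg, was under 0.05. By this test 5 of the 36 were higher in WT smoke (Irf7, Oas1a, Oasl1, Bst2 and Ifitm3) and 4 were lower (Irf1, Stat2, Parp14 and Samhd1), against 22.4% of all genes called in this comparison. The groups did not overlap for 2 genes higher in smoke (Oas1a and Oasl1) and 4 lower in smoke (Irf1, Samhd1, Trim25 and Dtx3l), against 18.1% of all genes in either direction. The median log2 difference was 0.81 over the scarce genes, 16 of 19 above 0, and -0.07 over the abundant genes, 10 of 17 below 0. Over all genes it was -0.02, with 6951 of 13225 below 0. Shares for genes of similar level are not given here. Without IIb1, 2 remained higher (Oas1a and Ifitm3) and the same 4 lower, against 18.8% of all genes, and the median of the scarce genes was 0.44 with 13 of 19 above 0. Over all genes the median was then -0.03, with 6985 of 13225 below 0. The groups then did not overlap for the same 2 higher and for 6 lower genes, the 4 above with Stat2 and Parp14, against 20% of all genes. Leaving out a mouse can add such genes but cannot remove any. Monocyte and interstitial macrophage markers also differed in this comparison, with 4 of 11 called higher, 1 lower and a median log2 difference of 2.24 (1.82 without IIb1). Their part in the result was not tested. Without WT air mouse Ib1, 5 of the 36 were called. Leaving out KO air mice IIIb2, IIIb3 and IIIb4, which enter only the estimate of the spread here, kept the 9 calls. It added Zbp1, Irf9 and Mx1 higher and Dtx3l lower (adjusted p = 0.0437, 0.0336, 0.0429 and 0.00885 by limma). The share of all genes for either set of libraries is not given here.

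Smoke in knockout mice raised Isg15 and Ifitm3 and lowered Irf1, Samhd1 and Ifi35, 5 of the 36 genes, against 15.5% of all genes. The groups did not overlap for Ifitm3, Irf1 and Samhd1, against 9.88% of all genes in either direction. Of the 36 genes, 23 had a log2 difference below 0, with a median of -0.06, and of the scarce genes 10 of 19 were below 0. Over all genes 6781 of 13225 were below 0, with a median of -0.01. Without KO air mice IIIb2, IIIb3 and IIIb4 the calls were Irf1 and Samhd1 lower, Ifitm3 higher and Ifit3 lower (log2 difference -3.41 ± 0.97, SE, adjusted p = 0.0249 by limma). Without KO smoke mouse IVb2, or without IVb4, 3 of the 36 were called.

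**Figure D3:**
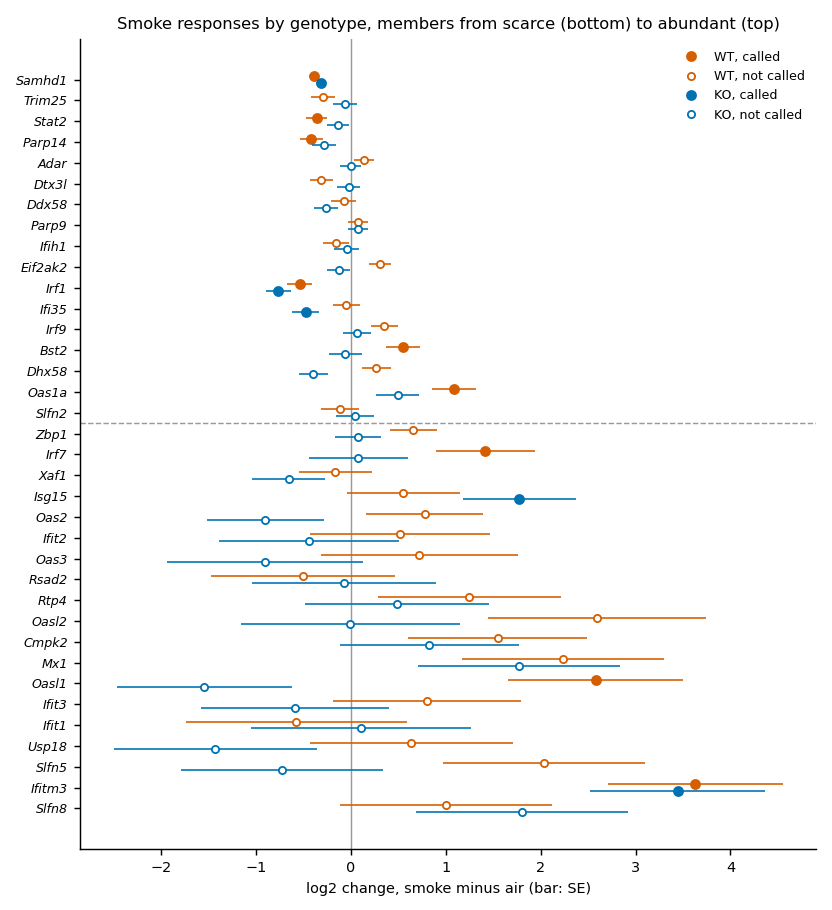
Log2 difference of smoke minus air for the 36 genes in WT (orange) and KO (blue) mice, with the SE as a bar, ordered by mean level, and the dashed line between scarce and abundant genes. Filled points passed an adjusted p of 0.05. Samhd1, Irf1 and Ifitm3 passed in both genotypes.

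Knockout against wild type in air gave no called gene among the 36 by limma, against 0.416% of all genes. At an unadjusted p under 0.05 there were 5 (Isg15, Ifit1, Dtx3l, Oasl1 and Ifit3), against 11.6% of all genes. No gene of the list had groups that did not overlap, against 1.83% of all genes. Without IIIb2, IIIb3 and IIIb4, which leaves IIIa5 and IIIb1 in KO air, the groups did not overlap for Oasl1 (higher), Ifitm3 and Dtx3l (both lower). Leaving out mice can only add such genes, and the share of all genes for these libraries is not given here. The log2 difference was below 0 for 30 of the 36, against 56.8% of all genes, and for 18 of the 19 scarce genes, with a median of -1.40 over the scarce genes. Without IIIb2, IIIb3 and IIIb4, 24 of 36 and 12 of 19 were below 0, and the median of the scarce genes was -0.39. Genes of a low level were also lower in those mice as a whole. Over all genes with a mean log2 CPM under 4, their means were 0.37, 0.52 and 0.48. The WT air mice had 0.71 to 0.95, and KO air mice IIIa5 and IIIb1 had 0.94 and 0.71. Shares below 0 for genes of similar level, and for all genes without those mice, are not given here. Without KO air mouse IIIa5, Trim25 was called lower.

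In smoke, most of these genes had a lower mean in the knockout than in wild type. Dhx58, Bst2 and Slfn5 were lower in KO smoke, 3 of the 36 by limma, against 1.58% of all genes, and none was higher. All 5 KO smoke mice were below all 5 WT smoke mice for 8 genes (Irf7, Dhx58, Oasl2, Ifit2, Ifit3, Bst2, Mx1 and Slfn5), against 4.24% of all genes in either direction and 2.54% lower in KO. At an unadjusted p under 0.05 there were 18 of 36, against 13.5% of all genes, all 18 with a log2 difference below 0. The log2 difference was below 0 for 30 of 36 genes, with a median of -0.76, against 54.0% and -0.02 over all genes. All 19 scarce genes were below 0, with a median of -1.88. Of all genes with a mean log2 CPM from -2 to 4, 55.9% were below 0, with a median of -0.06.

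Leaving out IIb1 left 1 of those 3 calls, Dhx58, against 0.665% of all genes. Then 29 of 36 genes had a log2 difference below 0, with a median of -0.50, against 54.7% and -0.03 over all genes, and 18 of the 19 scarce genes did, with a median of -1.32. The same 8 genes had every KO smoke mouse below the remaining 4 WT smoke mice, against 3.1% of all genes lower in KO. This was fixed in advance for them, since leaving out a mouse cannot create an overlap. Stat2 then had every KO smoke mouse above the remaining WT smoke mice. At an unadjusted p under 0.05 there were then 11 of 36, against 10.5% of all genes. Without KO smoke mouse IVb2 the call that remained was also Dhx58, and without WT smoke mouse IIa5 there were 5 calls. Without IIIb2, IIIb3 and IIIb4, which are in neither group but enter the estimate of the spread, there were 7 (Oasl2, Oas1a, Bst2, Slfn5, Dhx58, Ifit2 and Ifit3). Those 7 calls were made with IIb1 kept in, and the share of all genes for these libraries is not given here. Cd4 and Il7r summed to 7.47 to 41.2 CPM in WT smoke and 0.642 to 6.08 CPM in KO smoke, without overlap, and monocyte and interstitial macrophage markers to 1279 to 2381 and 1434 to 2014 CPM. Gene by gene, 8 of these 11 monocyte and interstitial macrophage markers had a log2 difference below 0, as did most of the interferon-stimulated genes. Their median was -1.01 (-0.79 without IIb1), with 0 called by limma and 5 at an unadjusted p under 0.05 (4 without IIb1). Both T and NK cell markers were below 0 at an unadjusted p under 0.05, also without IIb1. Of the neutrophil markers 3 of 5 were below 0, and of the plasmacytoid dendritic cell markers 3 of 4. The part of such cells in this comparison was not tested.

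**Figure D4:**
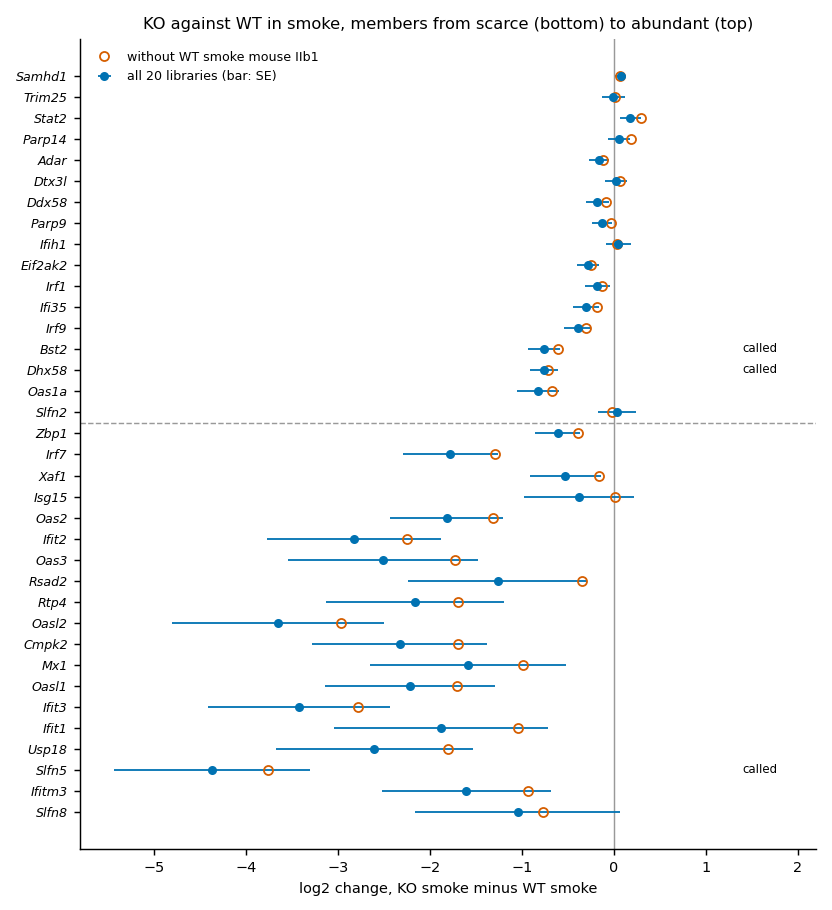
Log2 difference of KO smoke minus WT smoke for the 36 genes, ordered by mean level, with all 20 libraries (filled, bar SE) and without WT smoke mouse IIb1 (open). The 3 genes that passed an adjusted p of 0.05 with all libraries are marked as called, and all 19 scarce genes below the dashed line have filled points left of 0.

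A test of the difference between the smoke responses of the genotypes called none of the 36 genes by limma, against 0% of all genes. At an unadjusted p under 0.05 there were 5 (Oasl1, Dhx58, Eif2ak2, Bst2 and Ifi35), against 9.84% of all genes, each with a lower smoke response in the knockout. Without IIb1 there were 4 (Dhx58, Oasl1, Eif2ak2 and Stat2), against 8.33% of all genes, with Stat2 in the other direction, and again 0 were called. Without IIIb2, IIIb3 and IIIb4, Oasl1, Dhx58 and Bst2 stayed under that p, and Eif2ak2 and Ifi35 did not. Oasl2, Irf9, Mx1 and Ifit3 were then also under it, each with a lower smoke response in the knockout. The smallest adjusted p of the 36 genes was 0.425 by limma (Oasl1). The share of all genes for these libraries is not given here. Averaged over genotypes, smoke raised Oas1a, Isg15, Mx1 and Ifitm3 and lowered Irf1, Stat2, Parp14 and Samhd1, 8 of the 36, against 30.8% of all genes. Without IIb1 the calls were Oas1a and Ifitm3 higher and Irf1, Stat2, Parp14, Samhd1 and Ifi35 lower, against 28.5% of all genes. Without IIIb2, IIIb3 and IIIb4 they were Oas1a and Ifitm3 higher and Irf1, Parp14, Samhd1 and Trim25 lower. Averaged over exposures, the knockout was lower for Dhx58, Slfn5 and Ifit3, 3 of the 36, against 1.84% of all genes. That count was 0 without IIb1 and 0 without IIIb2, IIIb3 and IIIb4, and from 0 to 6 as each mouse was left out in turn. It was 0 without Ib2, Ib4, IIb1, IIIb4 or IVb2, 1 without Ia3, Ia4, IIa1, IIb2 or IVa4, 5 without IIa5 and 6 without IIIa5.

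**Figure D5:**
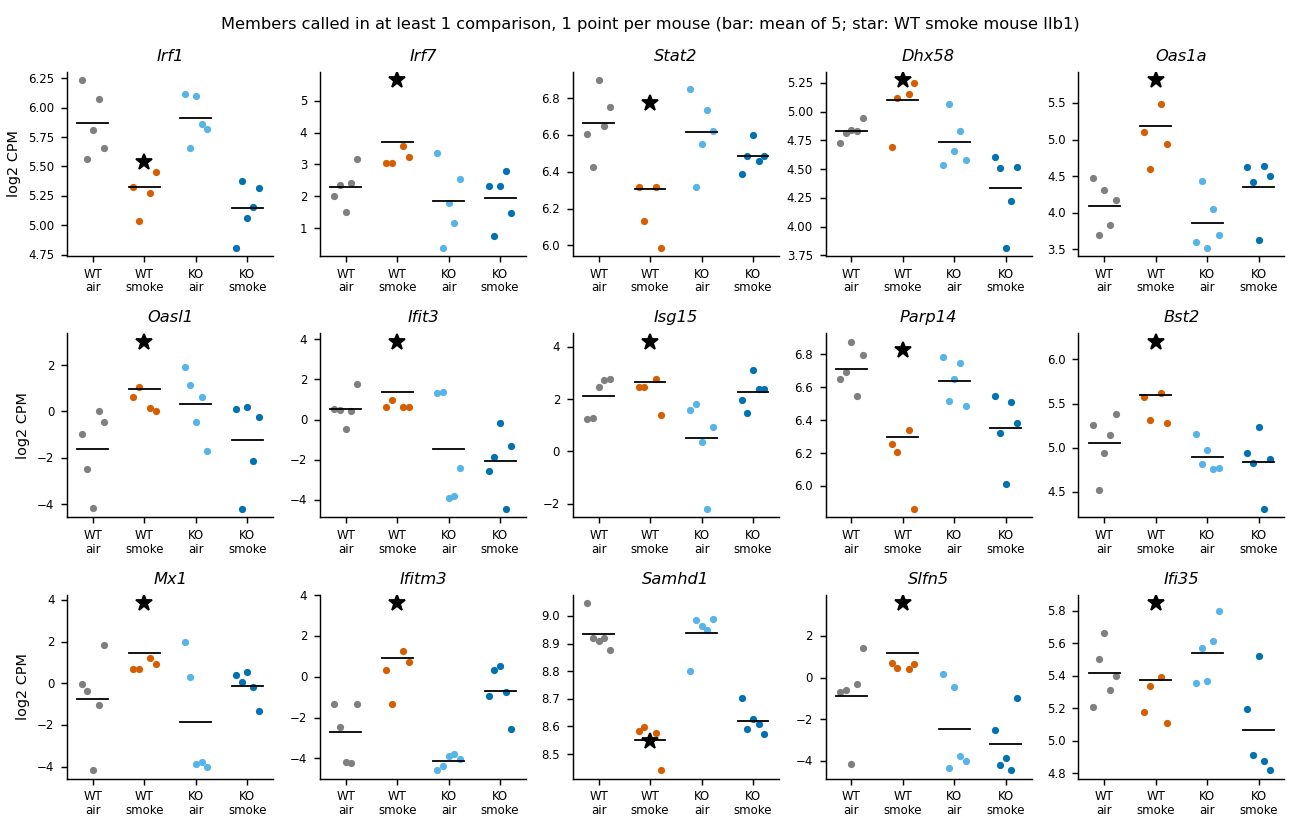
Log2 CPM of the 15 genes that passed an adjusted p of 0.05 in at least 1 comparison, with 1 point per mouse, the mean of 5 as a bar, and WT smoke mouse IIb1 as a star. Irf1 and Samhd1 show smoke groups wholly below air groups in both genotypes, and Dhx58, Bst2 and Slfn5 show KO smoke wholly below WT smoke.

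Among the transcription factors, Irf1 carries the interferon gamma signal to many promoters, Irf7 is the factor that amplifies interferon production, and Stat2 and Irf9 are parts of ISGF3. Irf1 (chr11:53770014-53778374, GRCm38, plus strand) was at 75.2, 47.2, 56, 67.3 and 50.3 CPM in WT air and 40.1, 32.8, 46.5, 38.6 and 43.8 CPM in WT smoke. It was at 69.2, 50.5, 68.3, 57.9 and 56.5 CPM in KO air and 28.0, 41.4, 33.4, 35.6 and 39.9 CPM in KO smoke. No smoke mouse of either genotype reached the lowest air mouse of its genotype. Smoke against air gave a log2 difference of -0.54 ± 0.13 (SE, adjusted p = 0.00333 by limma) in WT, -0.59 (adjusted p = 0.00302) without IIb1, and -0.77 ± 0.13 (adjusted p = 0.000126) in KO. Both calls held as each mouse was left out.

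Irf7 (chr7:141262706-141266481, minus strand) was at 4.00, 5.03, 2.78, 5.33 and 8.87 CPM in WT air and 8.17, 8.25, 49.8, 12 and 9.30 CPM in WT smoke. It was at 10.2, 1.26, 3.37, 2.18 and 5.82 CPM in KO air and 4.93, 1.64, 4.91, 6.88 and 2.72 CPM in KO smoke. In WT, 1 air mouse, Ib4, lay within the smoke range, and the remaining 4 lay below it. Every KO smoke mouse was below every WT smoke mouse. On the log2 scale the smoke response was 1.42 ± 0.52 (adjusted p = 0.0474 by limma) in WT, 0.94 (adjusted p = 0.213) without IIb1, and 0.08 (adjusted p = 0.946) in KO. The WT call was also lost without any of Ia3, Ia4, Ib1, Ib2, IIb2, IIb3, IVa2, IVa5 and IVb4. The log2 difference of KO from WT in smoke was -1.78 ± 0.52 (adjusted p = 0.0787), and -1.29 (adjusted p = 0.31) without IIb1.

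Stat2 (chr10:128270559-128292849, plus strand) was at 97.2, 86.1, 119, 100.4 and 108 CPM in WT air and 79.6, 70.2, 109, 79.8 and 63.4 CPM in WT smoke. It was at 115, 79.6, 93.8, 106 and 98.3 CPM in KO air and 83.5, 89.7, 96.9, 88.0 and 89.4 CPM in KO smoke. Within WT, 4 of 5 smoke mice were below all air mice, and IIb1 was among the air values. The log2 difference with smoke was -0.36 ± 0.11 (adjusted p = 0.021 by limma) in WT, -0.48 (adjusted p = 0.00131) without IIb1, and -0.13 (adjusted p = 0.489) in KO. The WT call was lost without Ib1, IIa5 or IIb3. Irf9 ranged from 31.1 to 41.0 CPM in WT air, 36.3 to 61.0 in WT smoke (up to 52.5 without IIb1), 27.6 to 47.2 in KO air and 32.2 to 39.4 in KO smoke and passed no test with all libraries. Without IIIb2, IIIb3 and IIIb4 it was called higher with smoke in WT (log2 difference 0.35, adjusted p = 0.0336 by limma).

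The sensors recognise nucleic acid inside the cell. Ddx58 (RIG-I) and Ifih1 (MDA5) detect viral RNA and signal to interferon, Dhx58 (LGP2) modulates both, and Zbp1 binds Z-form nucleic acid. Dhx58 (chr11:100694884-100704271, minus strand) was at 26.5, 28.1, 28.5, 28.4 and 30.7 CPM in WT air and 25.7, 34.8, 38.6, 35.5 and 38.1 CPM in WT smoke. It was at 23.1, 33.4, 25.2, 28.5 and 23.8 CPM in KO air and 24.3, 22.8, 14.0, 18.6 and 22.9 CPM in KO smoke. Of the WT smoke mice 4 were above all WT air mice, while IIa1 was below them, and the whole KO smoke group lay below the whole WT smoke group. The log2 difference of KO from WT was -0.76 ± 0.15 (adjusted p = 0.00626 by limma) in smoke and -0.10 (adjusted p = 0.855) in air. It was -0.72 (adjusted p = 0.0298) in smoke without IIb1, and the call held as each mouse was left out. The smoke responses, 0.27 ± 0.15 in WT and -0.40 ± 0.15 in KO, did not pass in either genotype (adjusted p = 0.234 and 0.0785 by limma), and their difference was -0.66 ± 0.22 (unadjusted p = 0.00466, adjusted p = 0.303). Without IIb1 the WT response was 0.22 (adjusted p = 0.401) and the difference -0.62 (unadjusted p = 0.0106, adjusted p = 0.477).

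Ddx58 was at 70.7, 70.5, 58.0, 63.5 and 66.4 CPM in WT air and 56.6, 65.7, 81.7, 63.5 and 48.8 CPM in WT smoke. It was at 66.2, 56.5, 52.0, 92.1 and 69.0 CPM in KO air and 59.4, 60.7, 51.7, 55.1 and 49.0 CPM in KO smoke. All groups overlapped, and the log2 difference of KO from WT in smoke was -0.18 (adjusted p = 0.615 by limma), and -0.08 (adjusted p = 0.906) without IIb1. Ifih1 ran from 37.6 to 67.4 CPM over all mice, and its log2 difference with smoke was -0.16 (adjusted p = 0.452) in WT and -0.14 (adjusted p = 0.572) without IIb1. Zbp1 was at 8.44 to 18.4 CPM in WT air, 12.9 to 37.1 in WT smoke (up to 20.4 without IIb1), 9.66 to 18.6 in KO air and 10.8 to 14.9 in KO smoke. Its log2 difference with smoke in WT was 0.66 ± 0.25 (adjusted p = 0.0542), and 0.44 (adjusted p = 0.227) without IIb1.

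Eif2ak2 encodes PKR, the kinase that stops translation when it binds double-stranded RNA, and Adar edits adenosine to inosine in such RNA. Eif2ak2 was at 46.6, 37.1, 39.4, 58.7 and 48.6 CPM in WT air and 61.4, 58.8, 61.1, 48.8 and 52.5 CPM in WT smoke. It was at 46.3, 49.3, 54.2, 49.5 and 53.7 CPM in KO air and 46.7, 53.5, 42.3, 53.5 and 37.5 CPM in KO smoke. WT smoke was above 4 of the 5 WT air mice, with a log2 difference of 0.31 ± 0.12 (adjusted p = 0.0654 by limma), and 0.28 (adjusted p = 0.144) without IIb1. Adar was at 76.0, 73.8, 71.0, 101 and 86.4 CPM in WT air and 90.3, 79.8, 101, 89.6 and 87.0 CPM in WT smoke. It was at 75.9, 92.8, 96.1, 66.2 and 73.4 CPM in KO air and 84.8, 72.3, 93.0, 71.3 and 80.6 CPM in KO smoke. Its groups overlapped throughout, with a log2 difference of 0.14 (adjusted p = 0.391) with smoke in WT, and 0.10 (adjusted p = 0.634) without IIb1.

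The oligoadenylate synthetases make the messenger that activates RNase L. Oas1a, Oas2 and Oas3 are enzymes of the cluster on chromosome 5, and Oasl1 and Oasl2 are related proteins. Oas1a (chr5:120896256-120907521, minus strand) was at 22.3, 12.9, 19.9, 14.2 and 18.0 CPM in WT air and 34.3, 24.2, 56, 44.8 and 30.7 CPM in WT smoke. It was at 12.1, 21.6, 11.5, 16.6 and 12.9 CPM in KO air and 24.6, 21.4, 12.3, 24.8 and 22.5 CPM in KO smoke. All WT smoke mice were above all WT air mice, while in KO the smoke mice IVa4 and IVa5 stayed within the air range. On the log2 scale the smoke response was 1.09 ± 0.23 (adjusted p = 0.00066 by limma) in WT, 0.93 (adjusted p = 0.00452) without IIb1, and 0.50 ± 0.23 (adjusted p = 0.147) in KO. The KO mice in smoke differed from WT by -0.83 ± 0.23 on the log2 scale (adjusted p = 0.0586), and by -0.67 (adjusted p = 0.233) without IIb1. Oas1a has near-identical neighbours such as Oas1g, and how the authors' counting shared reads between them is not given in the sources used here.

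Oasl1 (chr5:114923240-114937915, plus strand) was at 0.457, 0.120, 0, 0.959 and 0.674 CPM in WT air and 1.49, 2.01, 7.99, 1.07 and 0.962 CPM in WT smoke. It was at 3.68, 2.14, 0.674, 1.45 and 0.248 CPM in KO air and 1.03, 0, 1.09, 0.184 and 0.793 CPM in KO smoke. In WT the smoke mice lay above the air mice, the nearest pair at 0.962 and 0.959 CPM, and in KO the groups overlapped. Smoke against air gave a log2 difference of 2.58 ± 0.92 (adjusted p = 0.0428 by limma) in WT, 2.07 (adjusted p = 0.147) without IIb1, and -1.54 (adjusted p = 0.285) in KO. The WT call was also lost without Ia3, Ia4, Ib1, IIa1 or IIa5. The difference between the responses was -4.13 ± 1.31 (unadjusted p = 0.00374, adjusted p = 0.293), and -3.62 (unadjusted p = 0.0112, adjusted p = 0.477) without IIb1. Without IIIb2, IIIb3 and IIIb4 the KO response was -2.76 (adjusted p = 0.158 by limma), with no overlap. The difference was then -5.34 (unadjusted p = 0.00118, adjusted p = 0.425 by limma).

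For the scarce relatives, the reads summed over a group fell in KO smoke relative to WT smoke by a factor of 4.67 for Oas2, 7.91 for Oas3 and 12.7 for Oasl2, per read sequenced. Without IIb1 the factors were 2.82, 2.76 and 4.47. The median mouse was at 4.57 CPM in WT smoke and 1.56 CPM in KO smoke for Oas2, 4.92 and 1.42 CPM for Oas3, and 4.01 and 0.767 CPM for Oasl2. For Oasl2 all KO smoke mice were below all WT smoke mice, with a log2 difference of -3.65 ± 1.15 (adjusted p = 0.109 by limma), and -2.96 (adjusted p = 0.34) without IIb1. The highest WT smoke value of each came from IIb1, at 20.2 CPM for Oas2, 38.7 CPM for Oas3 and 39.3 CPM for Oasl2.

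The IFIT proteins bind viral RNA ends and block translation, and their genes lie side by side on chromosome 19. Ifit2 (chr19:34550694-34576419, plus strand) was at 5.14, 4.43, 1.44, 3.94 and 6.06 CPM in WT air and 3.69, 3.23, 27.7, 4.93 and 2.99 CPM in WT smoke. It was at 2.93, 1.85, 1.62, 2.18 and 0 CPM in KO air and 1.38, 1.20, 2.86, 0 and 1.13 CPM in KO smoke. Air and smoke overlapped in both genotypes, and all KO smoke mice were below all WT smoke mice. The log2 difference of KO from WT in smoke was -2.83 ± 0.95 (adjusted p = 0.14 by limma), and -2.24 (adjusted p = 0.394) without IIb1.

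Ifit3 (chr19:34583531-34588731, plus strand) was at 1.37, 1.32, 0.666, 1.28 and 3.37 CPM in WT air and 1.49, 1.89, 14.6, 1.5 and 1.5 CPM in WT smoke. It was at 2.43, 2.53, 0, 0 and 0.124 CPM in KO air and 0.115, 0.219, 0.818, 0 and 0.340 CPM in KO smoke. The KO smoke mice held 12 reads together and the WT smoke mice 192, a 15.0-fold difference per read sequenced, with no overlap between mice. Of the WT smoke reads IIb1 held 130, and without it the 62 that remain gave a 5.94-fold difference. The log2 difference of KO from WT in smoke was -3.42 ± 0.99 (adjusted p = 0.076 by limma), -2.79 (adjusted p = 0.277) without IIb1, and the same -3.42 with an adjusted p of 0.00988 without IIIb2, IIIb3 and IIIb4 but with IIb1 kept in. In air it was -2.03 ± 0.99 (adjusted p = 0.43), and 0.79 without those 3 mice, of which IIIb2 and IIIb3 had no read and IIIb4 had 1. Averaged over exposures the log2 difference of KO from WT was -2.72 ± 0.70 (adjusted p = 0.0381 by limma), -2.41 (adjusted p = 0.0956) without IIb1, and -1.31 (adjusted p = 0.354) without those 3. Ifit3 has a near-identical copy, Ifit3b, so reads may be split between them. Ifit1 had 150 reads in WT smoke, 39 of them outside IIb1, and 20 in KO smoke, and its median mouse was at 1.39, 0.790, 0 and 0.273 CPM in WT air, WT smoke, KO air and KO smoke.

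Isg15 encodes a ubiquitin-like protein that is attached to other proteins after interferon, Usp18 removes it and damps the receptor, and Trim25 is a ubiquitin ligase that activates RIG-I. Isg15 (chr4:156199424-156200818, minus strand) was at 2.28, 2.39, 5.44, 6.61 and 6.85 CPM in WT air and 5.45, 5.46, 18.3, 6.75 and 2.57 CPM in WT smoke. It was at 2.93, 3.5, 1.21, 0.145 and 1.86 CPM in KO air and 3.90, 2.74, 8.59, 5.23 and 5.21 CPM in KO smoke. In KO, 4 of 5 smoke mice were above all air mice, and in WT the groups overlapped. The log2 difference with smoke was 1.78 ± 0.60 (adjusted p = 0.0406 by limma) in KO and 0.55 (adjusted p = 0.572) in WT, where it was 0.17 (adjusted p = 0.9) without IIb1. Without IIIb2, IIIb3 and IIIb4 the KO difference was 0.58 (adjusted p = 0.618), and the call was also lost without IIIb2, IIIb3, IVa2, IVa5, IVb2 or IVb4. In smoke KO differed from WT by -0.38 on the log2 scale (adjusted p = 0.867 by limma), the smallest in size of the 19 scarce genes. Leaving out IIb1 removed that difference and turned its sign, to 0.0061 (unadjusted p = 0.992). Averaged over genotypes its smoke response was 1.17 ± 0.42 (adjusted p = 0.0346), and 0.97 (adjusted p = 0.0861) without IIb1.

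Trim25 (chr11:88999376-89020293, plus strand) was at 329, 389, 351, 300.0 and 347 CPM in WT air and 278, 286, 299.5, 246 and 291 CPM in WT smoke. It was at 462, 252, 238, 262 and 279 CPM in KO air and 219.5, 327, 282, 253 and 321 CPM in KO smoke. WT smoke lay wholly below WT air, with a log2 difference of -0.29 ± 0.13 (adjusted p = 0.0966 by limma) and -0.32 (adjusted p = 0.105) without IIb1, and in KO air mouse IIIa5 stood above the rest. Usp18 summed to 40 reads in WT air, 161 in WT smoke (53 without IIb1), 35 in KO air and 13 in KO smoke, and IIb1 was its highest mouse at 12.1 CPM.

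Parp9 and Dtx3l form a pair that promotes the expression of interferon-stimulated genes, and Parp14 is a related ADP-ribosyltransferase of macrophages. Together with Mx1 and Rtp4 they lie on chromosome 16, which also carries Mir155hg, at 48.7 Mb from it for Parp9, 48.8 Mb for Dtx3l and Parp14, 12.7 Mb for Mx1 and 61.1 Mb for Rtp4. Parp14 (chr16:35832874-35871544, minus strand) was at 100.4, 103, 118, 93.5 and 111 CPM in WT air and 76.5, 73.8, 113, 80.8 and 58.1 CPM in WT smoke. It was at 110.2, 91.4, 100.5, 107 and 89.8 CPM in KO air and 93.4, 80.1, 64.5, 91.0 and 83.3 CPM in KO smoke. Every WT smoke mouse but IIb1 was below all WT air mice. Smoke against air gave a log2 difference of -0.42 ± 0.12 (adjusted p = 0.0133 by limma) in WT and -0.55 (adjusted p = 0.000532) without IIb1, and the call was lost without IIb3. Averaged over genotypes it was -0.35 ± 0.09 (adjusted p = 0.00237), and -0.42 (adjusted p = 8.41e-05) without IIb1. Dtx3l was at 69.2 to 79.7 CPM in WT air and 52.1 to 66.5 CPM in WT smoke, with no overlap and a log2 difference of -0.31 ± 0.12 (adjusted p = 0.0618), or -0.35 (adjusted p = 0.0516) without IIb1, while Parp9 overlapped between all groups, at 48.4 to 81.9 CPM over all mice.

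The restriction factors act on the virus itself. Bst2 (tetherin) holds budding particles at the membrane, and Mx1 belongs to a family of antiviral GTPases. Ifitm3 stops fusion in endosomes, and Samhd1 depletes the nucleotides that reverse transcription needs. Whether these proteins are active in these mice was not measured. Bst2 (chr8:71534255-71537456, minus strand) was at 38.0, 22.9, 30.5, 35.4 and 41.8 CPM in WT air and 47.7, 39.6, 73.6, 49.0 and 38.9 CPM in WT smoke. It was at 35.6, 28.2, 31.3, 27.0 and 27.1 CPM in KO air and 30.6, 28.4, 37.6, 19.7 and 29.2 CPM in KO smoke. All KO smoke mice were below all WT smoke mice, and the KO groups overlapped each other. On the log2 scale the smoke response was 0.55 ± 0.18 (adjusted p = 0.0226 by limma) in WT, 0.40 (adjusted p = 0.109) without IIb1, and -0.06 (adjusted p = 0.882) in KO. The WT call was also lost without Ia4 or Ib1. The log2 difference of KO from WT in smoke was -0.76 ± 0.18 (adjusted p = 0.0184), -0.61 (adjusted p = 0.103) without IIb1, and the call was also lost without IVb2. The difference between the smoke responses was -0.61 (unadjusted p = 0.021, adjusted p = 0.392), and -0.46 (unadjusted p = 0.0619, adjusted p = 0.632) without IIb1.

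Ifitm3 (chr7:141009586-141010770, minus strand) was near the floor in air. It was at 0.343, 0.120, 0, 0 and 0.337 CPM in WT air and 1.23, 0.334, 12.3, 2.36 and 1.60 CPM in WT smoke. It had no read in any KO air mouse and was at 0.459, 1.20, 1.36, 0.551 and 0.113 CPM in KO smoke. In WT the smoke mouse IIa5 stayed among the air values, and in KO all smoke mice were above all air mice. The WT reads rose from 7 to 163, which is 21.6-fold per read sequenced. IIb1 held 109 of the 163, and the remaining 54 gave 8.77-fold. The 32 reads of the KO smoke mice were at least 10.6-fold higher than KO air, set at the floor of 3 reads over the group. The log2 difference with smoke was 3.63 ± 0.92 (adjusted p = 0.00423 by limma) in WT and 2.96 (adjusted p = 0.0262) without IIb1, and the WT call held as each mouse was left out. In KO it was 3.45 ± 0.92 (adjusted p = 0.00926), a fitted value that depends on the 0.5 reads added before the log, and this call was lost with log2(CPM + 1), quantile normalisation and voom weights. Ifitm3 has the close relative Ifitm2 beside it.

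Samhd1 (chr2:157097533-157135265, minus strand) was at 529, 484, 481, 484 and 469.8 CPM in WT air and 384, 387, 374, 382 and 348 CPM in WT smoke. It was at 445, 507, 499, 494 and 507 CPM in KO air and 417, 386, 396, 390.1 and 381 CPM in KO smoke. Every smoke mouse was below every air mouse in both genotypes, and IIb1 was not set apart. On the log2 scale the smoke response was -0.38 ± 0.06 (adjusted p = 5.38e-06 by limma) in WT, -0.38 (adjusted p = 2.58e-05) without IIb1, and -0.32 ± 0.06 (adjusted p = 0.00013) in KO, the smallest adjusted p of the 36 genes in WT. Without IIIb2, IIIb3 and IIIb4 the KO response was -0.27 (adjusted p = 0.0176 by limma). Both calls held as each mouse was left out.

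Mx1 (chr16:97447035-97462907, minus strand) was at 0.914, 0.718, 0, 0.426 and 3.48 CPM in WT air and 1.58, 1.56, 14.4, 2.25 and 1.82 CPM in WT smoke. It was at 3.93, 1.17, 0, 0 and 0 CPM in KO air and 1.26, 0.986, 1.36, 0.826 and 0.340 CPM in KO smoke. All KO smoke mice were below all WT smoke mice, and the log2 difference was -1.58 (adjusted p = 0.579 by limma), and -0.99 (adjusted p = 0.855) without IIb1. Averaged over genotypes the smoke response was 2.0 ± 0.75 (adjusted p = 0.043), 1.70 (adjusted p = 0.0993) without IIb1 and 0.49 (adjusted p = 0.64) without IIIb2, IIIb3 and IIIb4. In KO the mean of the log2 values rose by 1.77 ± 1.07 (adjusted p = 0.288) while the summed reads went from 59 to 42, a ratio of 0.707 per read sequenced. In KO air those 3 mice were at 0, and IIIa5 held 47 of the 59 reads.

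Rsad2 encodes viperin, and Cmpk2 is the nucleotide kinase beside it on chromosome 12. Rsad2 ran from 2.24 to 6.96 CPM in WT air, 0.321 to 32.1 in WT smoke, 0 to 5.69 in KO air and 0.340 to 1.84 in KO smoke. Cmpk2 ran from 0.359 to 3.03, 0.780 to 19.9, 0 to 1.86 and 0.136 to 1.38 CPM in the same groups. Neither passed a test. IIb1 gave the highest WT smoke value of both, and the next mouse was at 2.57 CPM for Rsad2 and 4.38 CPM for Cmpk2.

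The Schlafen genes are a family on chromosome 11 that restricts growth and viral replication in immune cells, and 1 of the 3 listed passed a test. Slfn5 (chr11:82951349-82964840, plus strand) was at 0.571, 0.598, 0, 0.746 and 2.58 CPM in WT air and 1.58, 1.34, 11.9, 1.29 and 1.5 CPM in WT smoke. It was at 1.09, 0, 0.674, 0 and 0 CPM in KO air and 0.115, 0, 0, 0 and 0.453 CPM in KO smoke. Read counts were 18, 12, 106, 12 and 14 in WT smoke and 1, 0, 0, 0 and 4 in KO smoke, with no overlap and a 30.4-fold difference per read sequenced. Without IIb1 56 reads remained in WT smoke, and the difference was 12.9-fold. The log2 difference of KO from WT in smoke was -4.37 ± 1.06 (adjusted p = 0.0271 by limma) and -3.76 (adjusted p = 0.133) without IIb1. The call was also lost without IIa1, IIb2, IVa4, IVa5 or IVb2. In air the log2 difference was -1.61 ± 1.06 (adjusted p = 0.581).

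Slfn2 was at 15.5, 17.5, 24.3, 18.0 and 21.1 CPM in WT air and 17.7, 18.2, 15.0, 17.6 and 20.2 CPM in WT smoke. It was at 20.3, 12.5, 13.2, 25.9 and 18.8 CPM in KO air and 20.8, 15.9, 25.2, 13.1 and 17.5 CPM in KO smoke. It passed no test, its groups overlapped, and IIb1 was the lowest WT smoke mouse. Slfn8, whose close neighbour is Slfn9, had 34, 51, 7 and 20 reads in WT air, WT smoke, KO air and KO smoke and passed no test. Of the 51 reads 38 were outside IIb1.

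Of the remaining genes, Ifi35 encodes a leucine zipper protein that binds Nmi, Rtp4 is a chaperone of membrane receptors, and Xaf1 antagonises the apoptosis inhibitor XIAP. Ifi35 (chr11:101448407-101458698, plus strand) was at 36.9, 45.4, 50.6, 39.7 and 42.1 CPM in WT air and 36.1, 40.3, 57.6, 41.9 and 34.4 CPM in WT smoke. It was at 40.9, 47.4, 41.2, 48.9 and 55.7 CPM in KO air and 36.6, 30.1, 45.9, 29.4 and 28.2 CPM in KO smoke. In KO, 4 of 5 smoke mice were below all air mice, and IVa5 lay within them. The log2 difference with smoke in KO was -0.48 ± 0.14 (adjusted p = 0.0215 by limma) and -0.40 (adjusted p = 0.214) without IIIb2, IIIb3 and IIIb4, and the call was also lost without IIIb4, IVa4, IVb2 or IVb4. Rtp4 ran from 0.598 to 3.26 CPM in WT air, 0.962 to 12.8 in WT smoke (up to 3.97 without IIb1), 0 to 3.10 in KO air and 0.136 to 1.72 in KO smoke. Xaf1 ran from 5.05 to 8.31, 2.67 to 15.6, 3.93 to 9.41 and 2.83 to 5.51 CPM in the same groups, with 7.18 CPM as the highest WT smoke value without IIb1, and neither passed a test.

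Genes upstream of the list were taken from lists of the pathway. The 21 interferon genes looked for, among them Ifnb1 and Ifng, were not analysed here. Ifnar1 ran from 57.5 to 73.2 CPM in WT air, 50.6 to 74.7 in WT smoke, 57.1 to 74.2 in KO air and 47.4 to 74.8 in KO smoke. The counts of calls with smoke in these lists are to be read against 22.4% of all genes in WT and 15.5% in KO. Of 6 receptor chains, smoke in WT lowered 1 (Ifngr1, log2 difference -0.38, adjusted p = 0.0019 by limma) and raised none, and smoke in KO gave 0 calls, with 1 of 6 at an unadjusted p under 0.05, against 28% of all genes. Among Jak1, Jak2, Tyk2 and Stat3, Tyk2 was lower with smoke in both genotypes, by -0.38 in WT and -0.25 in KO on the log2 scale. Of 5 other interferon regulatory factors, smoke lowered Irf5 and Irf2 in WT and Irf5 and Irf3 in KO. Of 17 genes of nucleic acid sensing, smoke lowered Tlr8 and Ikbke in WT, and Ikbke, Mavs and Tlr8 in KO. Of 11 inhibitors of the pathway, smoke in WT raised Nlrc3 (log2 difference 2.43) and Socs3 (1.59) and lowered Irf2bp2, Cish and Pias1, and smoke in KO raised Nlrc3 (2.75) and lowered Irf2bp2 and Cish. Over these 43 genes smoke thus gave 11 calls in WT and 9 in KO. Without IIb1 the WT calls were the same but for Pias1 (adjusted p = 0.062 by limma), 10 of 43 against 18.8% of all genes. For KO against WT, 0 of these 43 genes were called by limma in air and 0 in smoke, against 0.416% and 1.58% of all genes. At an unadjusted p under 0.05 there were 4 in air and 10 in smoke, against 11.6% and 13.5% of all genes. Without IIb1 the smoke count was 8, against 10.5%.

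Of 67 other interferon-stimulated genes, smoke raised 12 and lowered 7 in WT, against 22.4% of all genes, and raised 6 and lowered 11 in KO, against 15.5%. Without IIb1 it raised 9 and lowered 8 in WT, against 18.8%. Oas1g, the close relative of Oas1a, summed to 18 reads in WT air, 322 in WT smoke, 8 in KO air and 53 in KO smoke, with a log2 difference of 5.08 ± 1.04 (adjusted p = 0.000529 by limma) with smoke in WT and 4.82 (adjusted p = 0.00273) without IIb1. For KO against WT in smoke, 1 of the 67 passed, lower in KO, against 1.58% of all genes. It was Ly6e, a membrane protein that limits coronavirus entry, at 323 to 462 CPM in WT smoke and 294 to 315 CPM in KO smoke (log2 difference -0.35 ± 0.08, adjusted p = 0.0127 by limma), and the call was lost without IIb1 (-0.29, adjusted p = 0.069). In that comparison 55 of the 67 had a log2 difference below 0, with a median of -0.18, against 54.0% and -0.02 over all genes. Without IIb1 these were 50 of 67 and -0.11, against 54.7% and -0.03. Of 16 GTPase and chemokine genes inducible by interferon gamma, smoke lowered Gbp8 in WT, Gbp8 and Ciita in KO, and 0 were called for KO against WT in smoke, where 5 had an unadjusted p under 0.05 and 12 of 16 a log2 difference below 0. Without IIb1, Gbp8 was again the call in WT, and for KO against WT in smoke 0 were called, 3 had an unadjusted p under 0.05 and 12 of 16 were below 0.

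The promoter letters shown at the start can be set beside these values. The 14 genes with the core in their window, 8 of them scarce, had a median log2 difference of KO from WT in smoke of -0.94, with 12 below 0, and a median ratio of 2.54 in mouse IIb1. The 14 genes with a window and no core, 6 of them scarce, had a median of -0.35, with 11 below 0, and a median ratio of 1.44. Without IIb1 the medians were -0.64, with 11 below 0, and -0.17, with 11 below 0. The sets differ in how many scarce genes they hold, and the difference between them was not tested.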

How the data were processed

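Groups were taken from the labels, whose protocols give the miRNeasy Mini kit, 25 ng of RNA and the TruSeq mRNA kit. The submitters' processing notes name STAR 2.6.0c, limma and GRCm38.p6. The read counter, its annotation, the filter on low counts and the use of strand are not stated in the sources used here, so reads of a gene and an antisense partner cannot be told apart. The deposited values are log2 CPM that the authors computed with limma-voom, per the file name and from the values, with 0.5 reads added to each count and 1 to each total. Each value came back as a whole number of reads to within 0.001, and CPM in the text are from these reads.

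limma 3.58.1 (R 4.3.3) with a mean-variance trend was run on the deposited log2 CPM (13225 genes, 20 libraries) with 1 mean for each group and 7 comparisons. p-values were adjusted over all genes by Benjamini-Hochberg, and genes under 0.05 were called. The procedure was tested on simulated data. Folds per read sequenced compare reads summed over a group and divided by the group's total. Gene coordinates and exon lengths are from GENCODE M21 (GRCm38). Alternatives were other weights, trends, scalings, filters and pseudocounts, fits on the compared groups only, a covariate for the letter of the mouse code, a block for its letter and number, and leaving out mice. Per-mouse values are given for genes called in any comparison and, in each role group, for the most abundant gene and, where none was called, the gene with the smallest p. Genes and lists were chosen with earlier results of these data known. Precision rests on 5 mice per group and on counting error for the scarce genes.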

Additional observations from a re-analysis of the deposited data

Results flagged for a closer look

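Within groups of 5 mice, the highest or lowest log2 CPM of a gene stood apart from the others by the Dixon criterion in 12 of 84 groups tested over 21 genes, where chance flags about 1 in 20. WT smoke mouse IIb1 stood above its group for Irf7 (5.64), Ifit2 (4.79), Ifit3 (3.88), Mx1 (3.85) and Slfn5 (3.58). WT smoke mouse IIa1 stood below its group for Dhx58 (4.69). KO smoke mouse IVa5 stood below its group for Oas1a (3.62). For Ifit2, KO air mouse IIIb4 (-4.01) and KO smoke mouse IVb2 (-4.45) stood below their groups, both at 0 reads. KO air mouse IIIa5 stood above its group for Trim25 (8.85) and below it for Samhd1 (8.80), and WT air mouse Ia3 stood above its group for Samhd1 (9.05).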

How the results depend on the processing

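No log2 difference changed sign under any alternative in a comparison where its gene was called. In other comparisons signs did change, as for Isg15 for KO in smoke, to 0.0061 without IIb1. Without IIIb2, IIIb3 and IIIb4, Ifit3 turned to 0.79 for KO in air and Mx1 to -1.25 for smoke in KO. With all libraries 9, 5, 0 and 3 genes were called for smoke in WT, smoke in KO, KO in air and KO in smoke, 0 for the difference, 8 for smoke averaged and 3 for KO averaged. Without a variance trend the counts were 5 for smoke in WT, 1 for KO in smoke, 5 for smoke averaged and 0 for KO averaged. Quantile normalisation and voom weights each gave 3 for smoke in KO. For KO in smoke, log2(CPM + 1) gave 7, array weights 11, the compared groups alone 7, and leaving out KO air mice IIIb2, IIIb3 and IIIb4 7. For smoke in WT, leaving out those mice added Zbp1, Irf9, Dtx3l and Mx1 to the 9 calls. For KO averaged, array weights gave 5 and leaving out those 3 mice 0. As each mouse was left out, the counts ran from 5 to 11 for smoke in WT, 3 to 5 for smoke in KO, 0 to 1 for KO in air, 1 to 5 for KO in smoke, 0 to 0 for the difference, 6 to 11 for smoke averaged and 0 to 6 for KO averaged. Except without IIb1, shares of all genes called under these alternatives are not given here, so the counts show dependence on processing only. The causes were not tested. Some letters and numbers of the mouse codes recur across groups (such as b1, b2, b4 and a5), and the labels do not say what they mean. In the 10 pairs of mice that share one within a comparison, the deviations from the group means correlated over genes by -0.11 to 0.02, and in the comparisons with 3 pairs 2 of 12 best matches were with the mouse's own code, so the code was not taken as a pairing. With it as a replicate block, an alternative chosen after seeing the data, the counts were 3 for smoke in WT, 3 for smoke in KO, 1 for KO in smoke, 6 for smoke averaged, and 0 for KO in air, the difference and KO averaged. Scarce genes near 3 reads per library limit what these depths can show.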
